A study of Arabidopsis thaliana with 6 samples.

Results

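The transcripts of the core and linker histone genes were compared between *mdf-1* and wild type (WT) seedlings of *Arabidopsis thaliana*. *mdf-1* carries a T-DNA insertion in *MDF* (*MERISTEM-DEFECTIVE*), which encodes the plant counterpart of a splicing protein of the U4/U6.U5 tri-snRNP. The members were the protein-coding genes whose deposited description begins with histone H1, H2A, H2B, H3 or H4, and 40 of the 32998 listed genes met this rule. By their own descriptions 37 of them encode histones, namely 2 of H1, 6 of H2A, 9 of H2B, 12 of H3 and 8 of H4, and the other 3 encode enzymes that act on histones. A further 12 known histone genes have descriptions that begin otherwise, and they are given beside the members and counted apart. Both groups were whole seedlings in the Col-0 background at the age of 12 days, with 3 libraries each. The mutant group is a single insertion line, and every library mixes root and shoot.

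Nucleosomes hold DNA wrapped around pairs of H2A, H2B, H3 and H4, and H1 binds where the DNA enters and leaves. The genes of H4, H3.1 and the canonical H2A and H2B proteins are known to be expressed mainly while cells replicate their DNA, and variants such as H3.3 and H2A.Z are also placed into chromatin outside replication. In plants H2A.W is found in heterochromatin, H2A.X is phosphorylated at DNA breaks and CENH3 marks the centromeres.

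Between 44738352 and 45418026 reads were counted on genes in the *mdf-1* libraries and between 47175914 and 50088386 in WT. *MDF* itself had 3778, 3881 and 3681 normalized counts in the mutant and 3112, 2959 and 3032 in WT. These counts cover the gene on both sides of the insertion, so they do not check the labels. The genotypes differed widely: of 22397 genes tested, 33.5% were called higher and 33.9% lower in *mdf-1* at an adjusted p below 0.05 (edgeR's quasi-likelihood F test with Benjamini-Hochberg adjustment, which is meant by adjusted p throughout). Tissue markers differed too, and all 5 root markers and all 3 root tip markers of the fixed lists fell. Their summed levels were 417 to 531 normalized counts in *mdf-1* against 1937 to 2310.0 in WT for the root list, and 1834 to 1907 against 2415 to 2517 for the root tip list. The root tip sum is mostly *SCR* (mean 1848 against 2198 normalized counts), while *PLT1* had a mean of 12.1 against 141 and *PLT2* of 22.1 against 132. Of 4 shoot markers 1 rose and 1 fell, and their sums overlapped (946782 to 1202868 against 899436 to 963416). The pollen markers *VGD1* and *DUO1* were at 0 counts in all 6 libraries. The seed storage marker *CRA1* had 189.7 normalized counts in WT replicate 2 and at most 5.65 in any other library, and without WT replicate 2 the histone genes described below had 10 calls higher and 8 lower. In such bulk samples fewer cells of a type and less RNA per cell cannot be told apart.

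Histone genes were called in both directions, at shares not far from those of all genes tested, and the split depended on the scaling. Of the 37 histone genes 34 passed the filter on low counts, 12 of them rose (35.3%, beside 33.5% of all genes tested) and 9 fell (26.5%, beside 33.9%), and 67.4% of all genes were called in either direction. The groups did not overlap for 25 of the 34, and 73.2% of all genes tested had groups that did not overlap. The median log2 fold change (*mdf-1* minus WT) was 0.05, beside 0.01 for all genes, whose middle range ran from -0.51 to 0.41. Most changes were small, and only 5 of the 34 were called with a change of more than 1 on the log2 scale (21.7% of all genes tested were). With plain scaling to total counts, which moved the median of all genes to -0.14, the split of the 34 became 6 higher and 16 lower. Upper-quartile scaling gave 10 higher and 12 lower. The share of all reads that fell on the 37 genes was 0.194%, 0.182% and 0.189% in *mdf-1* and 0.207%, 0.196% and 0.213% in WT.

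By class, H3 had 7 higher and 1 lower among 11 tested, and H2B had 1 higher and 4 lower among 8 tested. H2A had 1 in each direction among 5, H4 had 3 higher and 2 lower among 8, and of the pair of H1 genes 1 fell. For comparison, 33.5% of all genes tested were called higher and 33.9% lower. Under total counts H3 had 4 higher and 3 lower, and H2B still had 1 higher and 4 lower. The 7 H3 genes called higher include *AT1G75600*, which passed the filter on low counts through its mutant libraries. The 3 genes that were not tested were *HTA4*, the H2B gene *AT1G08170* and the H3-like gene *AT5G12910*, none of which reached 10 normalized counts in any library. Where no gene symbol tells the copies of a class apart, genes are called here by their locus identifier.

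**Figure D1:**
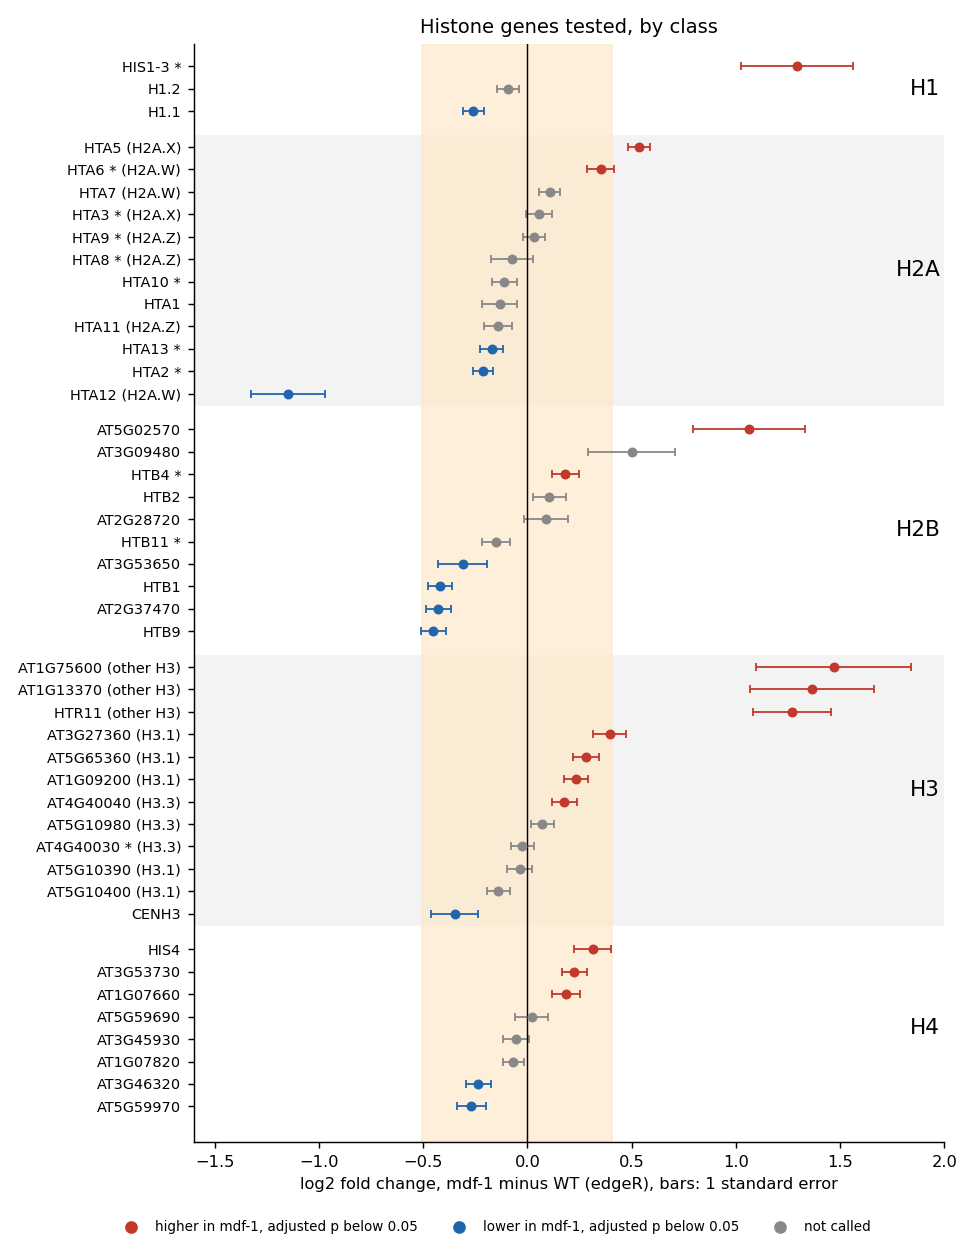
The log2 fold change of each tested histone gene (x axis, *mdf-1* minus WT, with 1 standard error) by class, with stars for histone genes whose description begins otherwise and the variant group in parentheses. The shaded band from -0.51 to 0.41 is the middle range of all genes tested, and *AT1G75600*, *AT1G13370*, *HIS1-3*, *HTR11* and *AT5G02570* lie more than 1 above 0 and *HTA12* more than 1 below it.

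The promoters of several histone genes shared an octamer, CGCGGATC, known from plant H3 and H4 promoters. In the 250 bases before each gene's start in the TAIR10.1 annotation from RefSeq, it was found on either strand in 7 of the 37 histone genes (18.9%) and in 37 of the 27419 promoters of all protein-coding genes (0.135%). Of those 37 promoters 10 belonged to histone genes, the other 3 being *HTA6*, *HTA10* and *HTA13*, and the only promoters of all with 2 copies were those of *AT1G09200* and *HTA10*. Of the 7 members 4 are H3 genes, 2 are H4 genes and 1 is *H1.1*. Only fixed motifs were searched for, so other shared promoter sequence was not examined. The stretches are shown 5′ to 3′ along each gene, with the octamer or its reverse complement in capitals and up to 20 bases on either side.
AT1G09200, distal copy (H3.1, chr1:2972397-2972444, minus strand): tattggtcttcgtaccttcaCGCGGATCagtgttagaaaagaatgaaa
AT1G09200, proximal copy (H3.1, chr1:2972335-2972373, minus strand): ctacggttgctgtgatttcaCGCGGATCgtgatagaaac
AT5G10400 (H3.1, chr5:3271050-3271097, minus strand): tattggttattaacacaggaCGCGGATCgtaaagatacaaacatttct
AT5G65360 (H3.1, chr5:26120680-26120727, minus strand): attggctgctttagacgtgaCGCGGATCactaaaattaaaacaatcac
AT4G40040 (H3.3, chr4:18558946-18558982, minus strand): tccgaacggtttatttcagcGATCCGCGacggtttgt
AT1G07660 (H4, chr1:2368687-2368734, plus strand): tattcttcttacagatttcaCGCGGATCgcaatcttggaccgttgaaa
AT5G59690 (H4, chr5:24051383-24051430, plus strand): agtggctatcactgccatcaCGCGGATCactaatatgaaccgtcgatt
H1.1 (chr1:2077768-2077815, minus strand): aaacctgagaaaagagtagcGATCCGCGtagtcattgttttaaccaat

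The octamers ended between 9 and 118 bases before the gene's start. Of the 7 genes 4 rose and 1 fell in *mdf-1*, and of the 27 tested members without the octamer 8 rose and 8 fell. The shares of all genes tested were 33.5% higher and 33.9% lower. The counts with and without the octamer depend on the scaling. Under total counts 0 of the 7 were called higher and 2 lower, beside 6 and 14 of the 27. Upper-quartile scaling gave 2 higher and 2 lower of the 7, beside 8 and 10 of the 27. An E2F site, written TTTGGCGC or TTTCCCGC on either strand, was found in 2 of the 37 promoters (5.41%, beside 0.956% of all), both of H4 genes. The TATA sequence TATAAA was found on either strand in 19 of 37 (51.4%, beside 47.4% of all). These are matches of letters, and binding was not measured.

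The linker histones went in different directions. *H1.1*, a main linker histone, had 7755, 7557 and 7316 normalized counts (counts scaled to a common effective library size) in *mdf-1* and 9181, 8857 and 9038 in WT. All 3 mutant libraries lay below all WT libraries, and *H1.1* fell by 0.26 ± 0.05 on the log2 scale (± is the standard error from edgeR, adjusted p = 0.00232). *H1.2*, the other main linker histone, had 7136, 7169.7 and 6757 in *mdf-1* and 7488, 7225 and 7753 in WT. These groups did not overlap either, but the difference of -0.09 ± 0.05 did not pass the test (edgeR, adjusted p = 0.161). *H1.2* was called lower under upper-quartile and total count scaling (-0.24 under the latter). *HIS1-3*, the stress-inducible linker histone H1.3, whose description begins otherwise, had 3695, 2127 and 4003 in *mdf-1* and 1254, 1171 and 1581 in WT. It rose by 1.29 ± 0.27 on the log2 scale (edgeR, adjusted p = 0.00755), with mdf-1 replicate 2 well below the other mutant libraries but above all of WT. Leaving out each library in turn gave 1.12 to 1.53. The level per length of *HIS1-3* was 72.1 FPKM in *mdf-1* and 29.4 in WT, beside 138 and 166 for *H1.1*. Summed over these 3 genes, linker histone counts overlapped between the groups, with a mean of 17839 ± 890.0 (SD, n = 3) in *mdf-1* and 17849 ± 563 in WT. Under total counts the sum lay lower in *mdf-1* without overlap, at a ratio of 0.904.

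**Figure D2:**
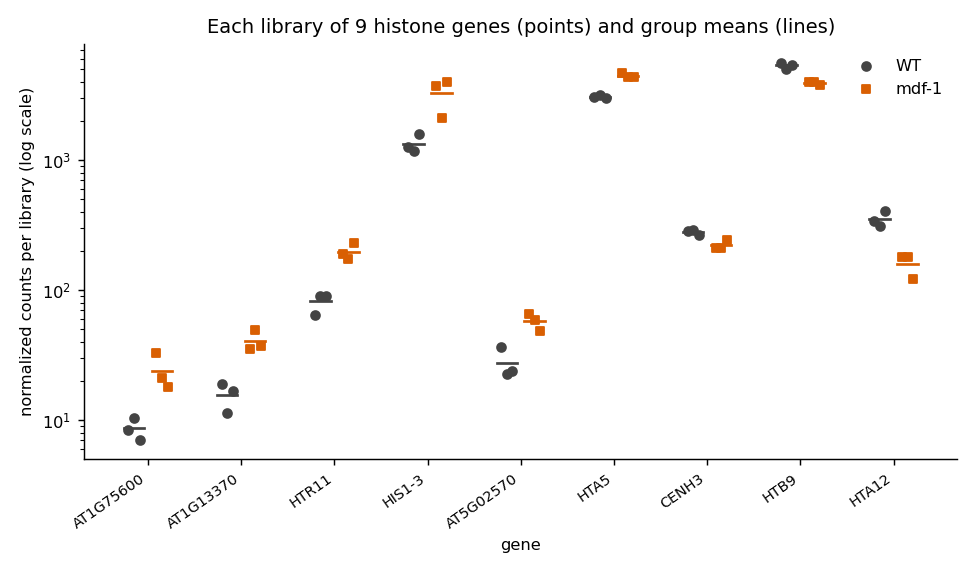
Normalized counts (y axis, log scale) in each of the 3 WT (circles) and 3 *mdf-1* libraries (squares) for 9 histone genes, with lines at the group means. In none of the 9 do the groups overlap, and *HIS1-3* has the widest spread within *mdf-1* in counts, from 2127 to 4003.

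Among the H2A genes the 3 kinds of variant did not move alike. *HTA5*, an H2A.X gene, had 4658, 4365 and 4352 normalized counts in the mutant and 3091, 3151 and 2993 in WT. The groups were far apart and *HTA5* rose by 0.53 ± 0.05 on the log2 scale (edgeR, adjusted p = 5.12e-05), which was the smallest adjusted p of all members. The other H2A.X gene, *HTA3*, had 2038, 1860.5 and 1889 in *mdf-1* and 1785, 1954 and 1829 in WT, and the groups overlapped (0.06 ± 0.06, edgeR, adjusted p = 0.438).

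The 3 H2A.W genes went 3 ways. *HTA12* had 180.0, 179 and 121 normalized counts in the mutant and 343, 313 and 407 in WT, and it fell by 1.15 ± 0.18 on the log2 scale (edgeR, adjusted p = 0.000608). *HTA6*, outside the rule, had 4788, 4439 and 5096 against 3689, 3606 and 3924, and it rose by 0.35 ± 0.07 (edgeR, adjusted p = 0.00156). *HTA7* had 3214, 3025 and 3003 against 2829, 2884 and 2875, without overlap, but its 0.11 ± 0.05 did not pass the test (edgeR, adjusted p = 0.0881). *HTA12* is the least abundant of the 3, at 2.26 FPKM in *mdf-1* and 5.01 in WT, beside 130.1 and 102 for *HTA6*.

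No H2A.Z gene passed the test, although *HTA11* was called lower under upper-quartile and total count scaling and without mdf-1 replicate 3. *HTA9*, the most abundant of them, had 5125, 5401 and 5354 normalized counts in the mutant and 5183, 4963 and 5370.4 in WT (0.03 ± 0.05, edgeR, adjusted p = 0.599). *HTA11* had 1318, 1445 and 1515 against 1545, 1532 and 1643 (-0.14 ± 0.07, edgeR, adjusted p = 0.0891), and its groups did not overlap. *HTA8* had 487, 529 and 589.6 against 523, 613 and 554, which overlapped (-0.07 ± 0.10, edgeR, adjusted p = 0.531). The fourth H2A.Z gene, *HTA4*, had at most 2.83 normalized counts in any library.

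The canonical H2A genes lay slightly lower in *mdf-1*. *HTA1*, the member by the rule, had 1306, 1074 and 1225 normalized counts in the mutant and 1229, 1323 and 1402 in WT, which overlapped (-0.13 ± 0.08, edgeR, adjusted p = 0.194). Outside the rule *HTA2* (-0.21) and *HTA13* (-0.17) fell and *HTA10* (-0.11) did not pass the test, so that 2 of the 4 were called. The call of *HTA13* was lost without WT replicate 3 and without mdf-1 replicate 1 or 2, and under total counts *HTA1* and *HTA10* were called lower too (-0.28 and -0.25).

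The H2B genes held the largest block of called decreases. *HTB9*, among the most abundant H2B genes, had 3999, 3993 and 3779 normalized counts in the mutant and 5616, 5045 and 5427 in WT. The groups were clearly apart, and *HTB9* fell by 0.45 ± 0.06 on the log2 scale (edgeR, adjusted p = 0.000219). *HTB1* had 1476, 1501 and 1517 against 1939, 1934 and 2129.6, and fell by 0.42 ± 0.06 (edgeR, adjusted p = 0.000304). *AT2G37470* and *AT3G53650* fell by 0.43 and 0.31. The call of *AT3G53650* had an adjusted p of 0.0451 with edgeR and was lost in 4 of the 6 fits that left out 1 library (WT replicate 1 or 2, or mdf-1 replicate 2 or 3), where its log2 fold change was -0.32 to -0.23.

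Other H2B genes did not follow. *HTB2* had 4427, 3968 and 4018 normalized counts in the mutant and 4112, 3446 and 3978 in WT, which overlapped (0.11 ± 0.08, edgeR, adjusted p = 0.259). *AT2G28720* (0.09) and *AT3G09480* (0.50 ± 0.21) did not pass the test either. Outside the rule *HTB4*, the most abundant H2B gene per length, rose by 0.18 ± 0.06 (edgeR, adjusted p = 0.0336), a call that was lost under total counts, upper-quartile scaling and a minimum of 10 counts in every library and in 5 of the 6 fits without 1 library (all but that without mdf-1 replicate 3). *HTB11*, also outside the rule, did not pass the test (-0.15, edgeR, adjusted p = 0.0747), but was called lower in 5 alternatives, among them total counts (-0.30). *HTB9* made up 24.1% ± 0.31 (SD, n = 3) of the summed H2B FPKM in WT and 19.0% ± 0.46 in *mdf-1*, and *HTB4* 24.3% ± 0.34 and 29.6% ± 0.34.

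*AT5G02570* was the only H2B member that rose. It had 65.8, 59.4 and 48.9 normalized counts in the mutant and 36.7, 22.6 and 23.8 in WT, and rose by 1.06 ± 0.27 on the log2 scale (edgeR, adjusted p = 0.00755). This gene (chr5:576655-577176, minus strand) lies wholly within the locus of *HTA12* (chr5:575225-577216, plus strand), which fell. Whether reads were counted by strand is not given in the sources used here, so reads of this pair cannot be told apart, and the values of both genes are uncertain.

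The H3 class had the most genes called higher, of several kinds. Of the 5 H3.1 genes 3 rose and none fell. *AT5G65360*, the most abundant of them, had 4681, 4271 and 4364 normalized counts in the mutant and 3489, 3556 and 3912 in WT, without overlap, and rose by 0.28 ± 0.06 on the log2 scale (edgeR, adjusted p = 0.00445). *AT3G27360* rose by 0.40 and *AT1G09200* by 0.23, while *AT5G10390* (-0.04) and *AT5G10400* (-0.14, edgeR, adjusted p = 0.054) did not pass the test. *AT5G10400* was called lower under RLE, upper-quartile and total count scaling, with a minimum of 10 counts in every library and without WT replicate 2 (-0.28 to -0.14), and *AT5G10390* under total counts (-0.18). Under total counts the log2 fold changes of *AT5G65360* and *AT1G09200* stayed above 0 (0.14 and 0.09) and their calls were lost.

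The H3.3 genes moved little, and *AT4G40040* and *AT5G10980* were the most abundant histone genes per length. *AT4G40040* had 17326, 16978 and 17214 normalized counts in the mutant and 14834, 14771 and 15986 in WT. All mutant libraries lay above all of WT, and it rose by 0.18 ± 0.06 on the log2 scale (edgeR, adjusted p = 0.0281). That call was lost under total counts and upper-quartile scaling, and without WT replicate 1 (adjusted p up to 0.114 over the fits of edgeR without 1 library), WT replicate 2 or mdf-1 replicate 2. *AT5G10980* had 7843, 7393 and 7271 against 7342, 6865 and 7217, which overlapped (0.07 ± 0.06, edgeR, adjusted p = 0.287). *AT4G40030*, outside the rule, had 8832, 8687 and 9189 against 9207, 8679.5 and 9289, which also overlapped (-0.03 ± 0.06, edgeR, adjusted p = 0.706), and was called lower under total counts (-0.17). In FPKM, a level per length, *AT4G40040* stood at 242 in *mdf-1* and 215 in WT and *AT5G10980* at 195 and 186.

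*CENH3*, the centromeric H3, was called lower. It had 209.6, 209 and 243 normalized counts in the mutant and 287, 291 and 266 in WT, and fell by 0.35 ± 0.11 on the log2 scale (edgeR, adjusted p = 0.0233). The groups did not overlap, but the call was lost in 4 of the 6 fits without 1 library (WT replicate 1 or 2, or mdf-1 replicate 1 or 2), where the adjusted p of edgeR reached 0.079.

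The largest increases of all members were in 3 weakly expressed H3-like genes. *HTR11* had 189.8, 172 and 231 normalized counts in the mutant and 65.0, 90.6 and 90.0 in WT, and rose by 1.27 ± 0.19 on the log2 scale (edgeR, adjusted p = 0.000457). *AT1G13370* had 35.1, 49.3 and 37.2 against 18.8, 11.3 and 16.8, and rose by 1.36 ± 0.30 (edgeR, adjusted p = 0.00374). *AT1G75600* had 32.9, 21.3 and 18.1 against 8.48, 10.4 and 7.06, and rose by 1.47 ± 0.37 (edgeR, adjusted p = 0.00785). In each of the 3 the lowest mutant library lay above the highest WT library, and the calls were kept in all 6 fits without 1 library. *AT1G75600*, however, had only 9, 11 and 8 raw counts in WT and passed the filter on low counts through its mutant libraries. With a minimum of 10 counts in every library it was not tested. Summed with *AT5G12910* and *MGH3* the 3 genes gave 263 ± 21.3 (SD, n = 3) normalized counts in the mutant and 108 ± 12.5 in WT. *MGH3*, the H3 of the male gamete, was at 0 counts in every library. *HTR11* starts 33 bases beyond the end of *AT5G65360* on the same strand (chr5), and the window before its start overlaps that gene.

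**Figure D3:**
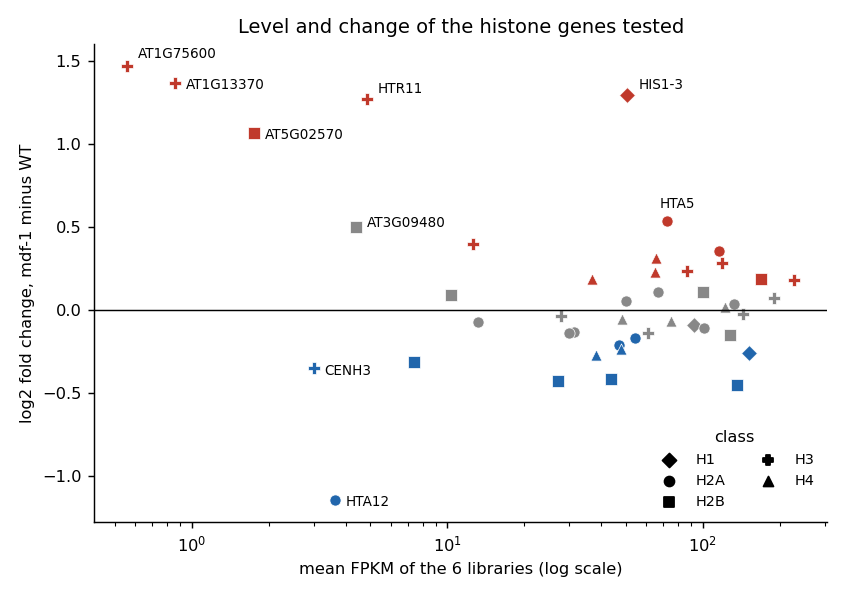
Mean FPKM of the 6 libraries (x axis, log scale) against the log2 fold change of each tested histone gene (y axis, *mdf-1* minus WT), with symbols for the classes and red, blue and grey for higher, lower and not called. Changes beyond 1 lie below 10 FPKM, except for *HIS1-3*.

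The largest changes were in weakly expressed members. The 8 members tested with a mean below 10 FPKM had a median log2 fold change of 0.78, and 4 of them rose and 3 fell. This median depends on which weak genes passed the filter on low counts. *AT1G75600* passed through its mutant libraries, and *HTA4* and *AT1G08170*, with lower means in *mdf-1*, were left out. The overlapping pair *HTA12* and *AT5G02570*, with uncertain values, is also among the 8. The 26 members at 10 FPKM or more had a median of -0.01, and 8 of them rose and 6 fell. All 5 members called with a change beyond 1 were among the 8. Depth differed with them: *AT1G75600* rested on 7 to 33 normalized counts a library, and the part of counting error in these sizes was not tested.

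The H4 genes encode the same protein and were split. *HIS4* had 2588, 2511 and 2229 normalized counts in the mutant and 2174, 1773 and 1950.5 in WT, and rose by 0.31 ± 0.09 on the log2 scale (edgeR, adjusted p = 0.0126). *AT3G53730* (0.23) and *AT1G07660* (0.19) rose too, the latter with an adjusted p of 0.0409 in edgeR that was lost under DESeq2 and in 5 of the 6 fits without 1 library (all but that without mdf-1 replicate 3). *AT5G59690*, the most abundant per length, had 4053, 4278 and 4630.0 against 4036, 4046 and 4702 and did not pass the test (0.02 ± 0.08, edgeR, adjusted p = 0.838). *AT1G07820* had 3506, 3284 and 3311 against 3599, 3428 and 3560.3, which overlapped (-0.07 ± 0.05, edgeR, adjusted p = 0.264). *AT5G59970* fell by 0.27 and *AT3G46320* by 0.24. Under total counts none of the 8 was called higher and 4 were called lower.

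*AT3G46320* and *AT3G45930* are near copies of each other, and they were singled out for their sequence after the values had been seen. *AT3G46320* had 1346, 1259 and 1397 normalized counts in the mutant and 1560.4, 1509 and 1642 in WT, and fell by 0.24 ± 0.06 on the log2 scale (edgeR, adjusted p = 0.00933). *AT3G45930* had 1594, 1568 and 1478 against 1647, 1497 and 1669.8, and did not pass the test (-0.05 ± 0.06, edgeR, adjusted p = 0.477). Their transcripts share an exact run of 160 bases, the longest between any members and the only one that reaches the read length of 150 bases, so reads within it fit both genes and their values are uncertain. Over the 37 histone genes the longest run shared with another histone gene had a median of 37 bases. The 250 bases before the start of the pair differ at 3 positions, and both hold the E2F site, in capitals below.
AT3G45930 (chr3:16883066-16883315, plus strand): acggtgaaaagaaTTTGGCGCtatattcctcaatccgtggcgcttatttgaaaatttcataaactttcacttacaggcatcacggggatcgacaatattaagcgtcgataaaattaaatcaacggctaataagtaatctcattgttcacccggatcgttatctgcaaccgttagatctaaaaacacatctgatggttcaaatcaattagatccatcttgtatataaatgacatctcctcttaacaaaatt
AT3G46320 (chr3:17020429-17020678, minus strand): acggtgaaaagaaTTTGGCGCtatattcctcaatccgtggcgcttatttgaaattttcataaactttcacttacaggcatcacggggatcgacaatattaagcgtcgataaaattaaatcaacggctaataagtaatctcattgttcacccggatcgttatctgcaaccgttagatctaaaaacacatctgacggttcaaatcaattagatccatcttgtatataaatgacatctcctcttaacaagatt

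Summed over genes the classes moved in different directions. For the rule's members the ratio of *mdf-1* to WT was 0.882 for H1 and 0.855 for H2B, 1.12 for H2A and 1.11 for H3, all without overlap between the groups, and 1.03 for H4 with overlap. Under total counts H1 and H2B still lay lower without overlap (0.798 and 0.773), H2A and H3 overlapped (1.02 and 1.00) and H4 was at 0.927. All 37 genes together gave 92717 ± 2034 (SD, n = 3) normalized counts in the mutant and 91428 ± 3206 in WT, which overlapped, and under total counts the ratio was 0.917 without overlap. With the 12 further genes added, H2B overlapped too (26792 ± 1327 against 27960.2 ± 1198), with a ratio of 0.958. H1 then overlapped as well, with a ratio of 0.999. The 13 H2A genes overlapped in summed FPKM, at 735 ± 23.0 (SD, n = 3) in *mdf-1* and 703 ± 16.0 in WT. Under total counts the 3 H1 genes and the 11 H2B genes lay lower without overlap (0.904 and 0.866).

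Among the H2A variant groups, summed with the further genes, H2A.X had the highest ratio. Its sum was 6696, 6225 and 6241 normalized counts in the mutant and 4876, 5105 and 4821 in WT. The ratio of 1.29 (1.17 under total counts, again without overlap) was carried by *HTA5*, while *HTA3* overlapped between the groups. H2A.W had a ratio of 1.15, carried by *HTA6* and overlapping under total counts (1.04). Canonical H2A had 0.904 and H2A.Z 0.992, the latter with overlap that ended under total counts (0.898). The ratio of summed H3.1 to summed H3.3 counts, which does not depend on the scaling, was 0.345, 0.341 and 0.338 in *mdf-1* and 0.325, 0.326 and 0.332 in WT. All mutant libraries lay above all WT libraries, by 1.04 times in the mean. These sums are given as descriptions without a test.

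**Figure D4:**
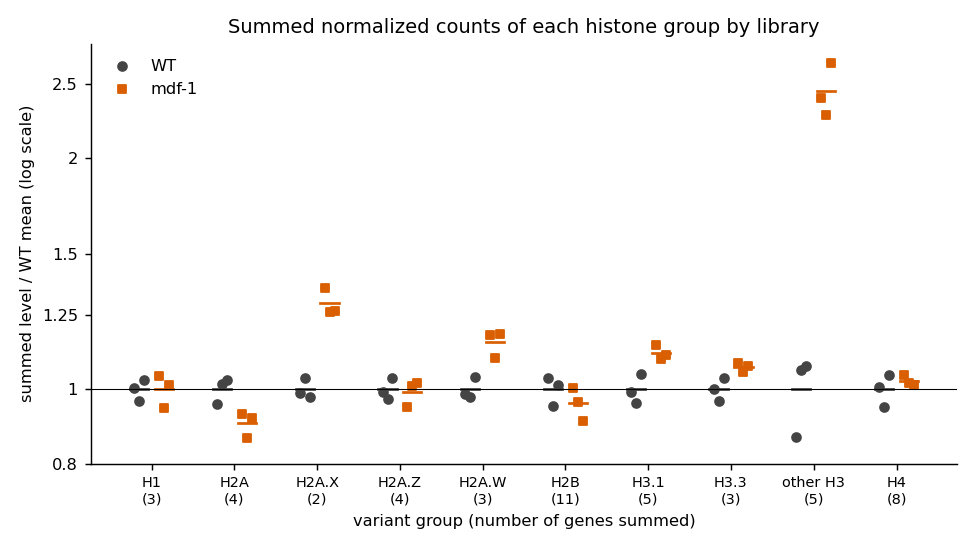
Summed normalized counts of each histone group in each library over the WT mean (y axis, log scale), with the number of genes summed in parentheses on the x axis, circles for WT, squares for *mdf-1* and lines at the means. The group of other H3 genes stands at 2.45 and H2A.X at 1.29, and H1, H2A.Z, H2B and H4 overlap.

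Genes with and without introns were called in both directions, beside 33.5% higher and 33.9% lower among all genes tested. Of the 21 histone genes without an annotated intron 19 were tested, of which 7 rose and 5 fell (median log2 fold change 0.09). Of the 16 with at least 1 intron 15 were tested, of which 5 rose and 4 fell (median -0.07). The 37 genes lie on all 5 chromosomes, with 13 on chromosome 5 and 10 on chromosome 1.

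The rule also takes in 3 enzymes, of which 2 rose and 1 fell. *AT3G07565*, described as a histone H2A deubiquitinase, had 1055, 1171 and 1048 normalized counts in the mutant and 911, 857 and 968 in WT and rose by 0.26 ± 0.07 on the log2 scale (edgeR, adjusted p = 0.0129), a call that was lost under total counts (0.11) and without WT replicate 2 (edgeR, adjusted p = 0.0502). The pair described as SET7/9 family H3 K4 methyltransferases went in opposite directions. *AT1G21920* had 4996, 5529 and 4375 against 4106, 3745 and 3495 and rose by 0.39 ± 0.09 (edgeR, adjusted p = 0.00653). *AT1G77660* had 348, 389.8 and 355 against 529, 456 and 475 and fell by 0.42 ± 0.10 (edgeR, adjusted p = 0.00466).

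Genes that place or exchange histones were examined as fixed lists, beside 33.5% higher and 33.9% lower among all genes. Of 18 chaperones of H3-H4 and H2A-H2B 5 rose and 6 fell. *ATRX*, which takes part in H3.3 deposition, fell by 0.64 ± 0.06 on the log2 scale, and *CABIN1* of the HIRA complex fell by 0.48 (edgeR, adjusted p = 3.11e-05 and 0.000158). Of the CAF-1 complex, which loads H3.1 behind the replication fork, *FAS2* fell by 0.46 and *MSI1* rose by 0.45 (edgeR, adjusted p = 0.0041 and 9.95e-05). The count of 5 that rose was 1 under total counts and 1 to 4 without 1 library. Of 9 genes for the exchange and loading of variants 2 rose and 6 fell. *INO80*, a nucleosome remodeller, had 2049.9, 2240.2 and 2088 normalized counts in the mutant and 5559, 5808 and 5777 in WT and fell by 1.43 ± 0.05 (edgeR, adjusted p = 1.5e-06). *PIE1*, the ATPase of the SWR1 complex that places H2A.Z, fell by 0.56, *KNL2*, which is needed to load CENH3, by 0.54, and *DDM1*, a remodeller of heterochromatin, by 0.32.

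The cell cycle lists lay lower than the histone genes. Of 17 genes of S phase 1 rose and 9 fell, with a median log2 fold change of -0.19. *ORC1A* and *ORC1B* of the origin recognition complex fell by 0.85 and 0.60 and *ICU2*, the catalytic subunit of DNA polymerase alpha, by 0.69, while *TK1A*, a thymidine kinase, rose by 0.66. Of 7 genes of G2 and M phase none rose and 6 fell, with a median of -0.56. The mitotic activator *CDC20.1* fell by 0.91, the cyclin *CYCB1;2* by 0.68 and the kinases *CDKB2;1* and *CDKB2;2* by 0.62 and 0.56, all with edgeR adjusted p values of at most 0.00306. The median of the histone members was 0.05. The root tip and root markers were low in *mdf-1* as given above, and most called genes of these lists fell too. Of the histone members 12 rose and 9 fell, and the part of root tissue in the results was not tested.

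**Figure D5:**
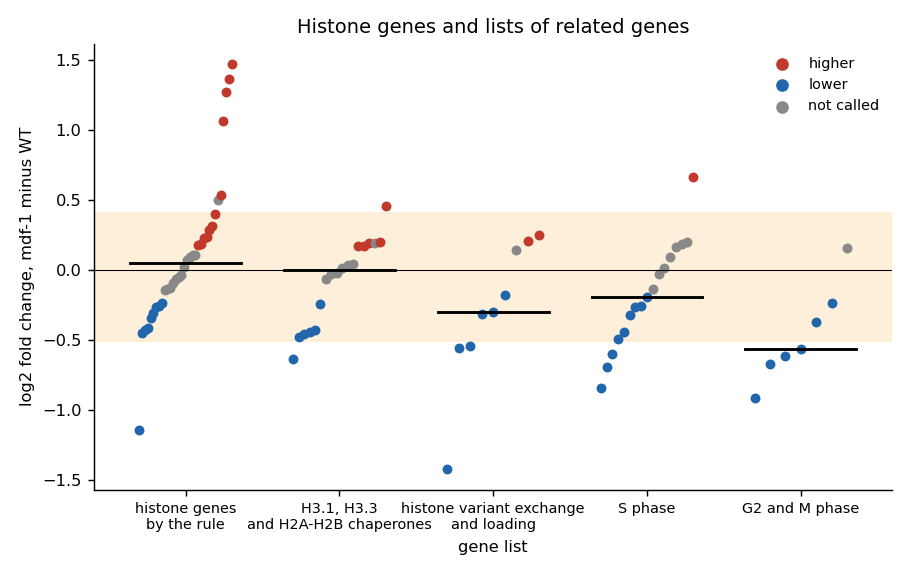
Log2 fold change (y axis, *mdf-1* minus WT) of the tested histone members and of the genes of 4 fixed lists, with points coloured by call, lines at the medians and a shaded band for the middle range of all genes from -0.51 to 0.41. The medians are 0.05 for the histone members, -0.19 for S phase and -0.56 for G2 and M phase.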

How the data were processed

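RNA from 3 biological replicates per genotype was sequenced as paired reads of 150 bases. Per the study's methods and the submitters' processing notes, the authors trimmed reads (fastp), mapped them to TAIR10 (HISAT2) and deposited raw read counts per gene (featureCounts). They also deposited FPKM, counts scaled by gene length and by a library total that the authors had adjusted. Whether reads were counted by strand or how shared reads were treated is not given in the sources used here. The authors' normalized counts (6 columns) and comparison columns (3, fold changes and p-values) were not used.

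The counts were fitted over all genes with edgeR 4.0.16 in R 4.3.3 (filterByExpr, TMM scaling, robust quasi-likelihood F test, genotype as the only term). P-values were adjusted by Benjamini-Hochberg, with 0.05 as the threshold. Normalized counts are counts divided by the effective library size times its mean. Since 3 counts are 5.99e-06% to 6.71e-06% of a library, genes at 0 are limited to that share, counting error only. Alternatives used DESeq2 1.42.0, other scalings, filters and thresholds, a replicate block and fits without each library. Replicates differed beyond sampling noise. The fits were tested on simulated counts, with the same level of noise for all genes and larger changes than most reported here. That test does not cover small changes.

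The members and lists were chosen with earlier results of these data known. Values in every library are given for the 3 most abundant members of each class per length, members called beyond 1 on the log2 scale, *CENH3*, *HIS1-3* and variant groups with 3 or fewer genes tested. Of each list up to 4 called genes with the largest change are named. Gene starts and sequences are from RefSeq's TAIR10.1, where start and end matched the deposited ones for all 40 members. A further listed locus was not analysed here. Protein sequences were not used here.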

Additional observations from a re-analysis of the deposited data

How the results depend on the processing

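The counts of 12 histone genes higher and 9 lower became 6 and 16 under total counts and 10 and 12 under upper-quartile scaling. They were 10 and 10 with a minimum of 10 counts in every library, and 10 to 13 and 7 to 9 without 1 library. Total counts also gave 2 lower for H1, 3 lower for H2A, 4 higher and 3 lower for H3, 0 higher and 4 lower for H4, 1 chaperone and 0 exchange genes higher, and sums over WT of 0.798 (H1), 1.02 (H2A), 0.773 (H2B), 1.00 (H3), 0.927 (H4), 0.818 (canonical H2A), 1.17 (H2A.X), 0.898 (H2A.Z) and 1.04 (H2A.W). Upper-quartile scaling gave 2 lower for each of H1, H2A and H3, and 1 chaperone and 1 exchange gene higher. RLE scaling gave 2 lower for H3. A minimum of 10 counts in every library gave 2 lower for H3, 3 chaperones and 1 exchange gene higher, no filter 1 exchange gene higher, and DESeq2 3 chaperones and 1 exchange gene higher. An adjusted p below 0.01 gave 0 lower for H3, 0 higher for H4, and 1 chaperone and 1 exchange gene higher. The cause of these changes was not tested.

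Without 1 library the calls were 1 to 2 lower for H2A and 1 to 2 higher for H2B (2 without mdf-1 replicate 3 for both), 0 to 1 lower for H3 (0 without WT replicate 1 and without mdf-1 replicate 1 or 2), 1 to 4 chaperones higher (4 without mdf-1 replicate 1, at most 3 otherwise), 1 to 2 exchange genes higher (1 without any WT library or mdf-1 replicate 1) and 1 to 2 S phase genes higher (2 without WT replicate 3 or mdf-1 replicate 1). The labels do not say whether the replicate numbers pair the samples. Deviations of same-numbered libraries correlated at 0.0443, -0.00349 and 0.0805, which showed no pairing but cannot exclude it. With the number as a block 11 histone genes were higher and 9 lower, with 1 exchange gene and 2 S phase genes higher. Of 99 single genes the block left 94 on their side of the threshold, brought 2 past it and lost 3, and DESeq2 kept 95 and lost 4. No called gene changed direction under any alternative. The tested histone members under 10 FPKM have fewer counts in the mean than the other tested histone members, which limits their precision.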
